A study of Mus musculus with 4 samples.

Results

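The Ier, Zfp36 and Btg genes are rapid response genes, and 9 of them were followed here by symbol: Ier2, Ier3, Ier5, Ier5l, Zfp36, Zfp36l1, Zfp36l2, Btg1 and Btg2. They are 9 of the 22552 genes in the authors' table, and all 9 reached 1 FPKM in at least 1 library, as 13248 genes did. Values are FPKM (fragments per kilobase of transcript and per sequenced library size), so levels can be set beside each other between genes. RNA came from cultured cortical neurons of E16.5 mouse embryos, with 1 library for each of 4 groups: wild type at basal KCl, wild type with 50 mM KCl for 6 h, and the same treatments in Brg1-cko (BAF53bCre Brg1F/F) neurons, called cKO here. The labels describe all 4 groups as primary cultured cortical neurons and give TTX (1 µM) and APV (100 µM) on day 5 in vitro, ahead of KCl on day 6. TTX blocks sodium channels and APV blocks NMDA receptors, which silences spontaneous activity in every group. BAF53b is a neuronal subunit of the chromatin remodelling complex that contains Brg1, so Cre driven by its gene acts in neurons, and other cells in a culture would keep Brg1 (gene Smarca4). With 1 library a group there was no replicate check of any difference, and no p-value is given.

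Rapid response genes are switched on within minutes of a stimulus, from transcription factors already present in the cell, and many of their RNAs are short-lived. In neurons, depolarization with KCl lets calcium in through voltage-gated channels and turns such genes on. KCl was sampled here at 6 h only, so a rise that had passed by then would not show in these values. Ier2, Ier5 and Ier5l encode related nuclear proteins that bind the phosphatase PP2A, and IER5 also binds the heat shock factor HSF1. Ier3, also called IEX-1, encodes a small unrelated protein of stress and survival signalling. Zfp36 (tristetraprolin), Zfp36l1 and Zfp36l2 encode zinc finger proteins that bind AU-rich elements in the 3′ UTRs of other RNAs and bring in the CCR4-NOT deadenylase. Btg1 and Btg2 encode antiproliferative proteins that also bind CCR4-NOT, and Btg2 is a known p53 target.

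Promoter sequences from RefSeq (GRCm38.p6) were found for 7 of the 9 genes: Ier3, Ier5, Ier5l, Zfp36, Zfp36l1, Btg1 and Btg2. The 250 bases before the annotated start were searched on both strands, and matches of 3 motifs of stimulus-responsive or core promoters are in capitals below. These are the cyclic AMP response element (CRE, TGACGTCA, with its shorter core TGACG, which every full site contains on both strands), the CArG box bound by serum response factor, and the TATA box (TATAAA). The 4 promoters shown belong to the gene with the largest genotype difference after KCl (Ier3), the gene with the only CArG box (Zfp36) and the Btg pair, whose KCl responses differed most within a family.

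Ier3, chr17:35821463-35821712, plus strand: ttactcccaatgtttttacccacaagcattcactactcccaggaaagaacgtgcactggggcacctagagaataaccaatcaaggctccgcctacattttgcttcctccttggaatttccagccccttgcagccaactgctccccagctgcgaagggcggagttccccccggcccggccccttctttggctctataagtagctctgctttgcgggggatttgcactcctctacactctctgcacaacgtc
Zfp36, chr7:28379229-28379478, minus strand: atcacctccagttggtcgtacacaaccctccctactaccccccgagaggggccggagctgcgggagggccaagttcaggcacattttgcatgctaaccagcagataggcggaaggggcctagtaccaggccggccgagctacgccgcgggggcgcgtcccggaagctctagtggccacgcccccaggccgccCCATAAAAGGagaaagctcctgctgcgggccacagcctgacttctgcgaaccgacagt
Btg1, chr10:96616751-96617000, plus strand: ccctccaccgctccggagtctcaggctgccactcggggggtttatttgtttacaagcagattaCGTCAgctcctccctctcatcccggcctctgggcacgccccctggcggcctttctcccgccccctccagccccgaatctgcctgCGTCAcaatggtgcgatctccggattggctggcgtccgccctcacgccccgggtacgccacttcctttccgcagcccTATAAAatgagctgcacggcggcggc
Btg2, chr1:134079156-134079405, minus strand: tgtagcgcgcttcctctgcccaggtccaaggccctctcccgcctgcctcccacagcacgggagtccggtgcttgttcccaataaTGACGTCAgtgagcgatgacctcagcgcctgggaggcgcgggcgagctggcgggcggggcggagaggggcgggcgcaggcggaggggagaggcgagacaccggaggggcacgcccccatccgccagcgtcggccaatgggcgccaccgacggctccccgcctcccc

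Btg2 held the full CRE, 166 to 159 bases before the start, as 1.55% of the 32851 RefSeq promoters searched in the same way did. Btg1 held 2 separate CRE cores, and 17.8% of promoters held at least 1. Zfp36 held 1 CArG box, 58 to 49 bases before the start, against 1.47% of promoters. Btg1 and Zfp36l1 held a TATA box, against 12.4%. Ier3 held none of these but matched the kappaB site bound by NF-kappaB (92 to 83 bases before the start), which 3.90% of promoters did. A CCAAT box (CCAAT) was found in 6 of the 7, all but Zfp36, and a GC box (GGGCGG) in 6 of the 7, all but Zfp36l1, against 33.8% and 32.7% of promoters. The AP-1 site TGANTCA was found in Zfp36l1 alone, against 6.75% of promoters. These are matches of letters and not sites of measured binding, and the shares over all promoters were not matched for GC content. GC content ran from 48.4% (Zfp36l1) to 73.2% (Btg2) in the 7 promoters, against a median of 52.4% for all promoters.

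The 3′ UTRs were searched for the AU-rich nonamer TTATTTATT (written as DNA), the sequence that Zfp36 proteins themselves bind, using the longest coding transcript of each gene in GENCODE M21. It was found once in each Zfp36 family gene and in none of the other 6 genes, and 7.57% of 21020 genes held it. The matches are shown with 10 flanking bases on each side and the nonamer in capitals, since they place the family's own recognition sequence in its own RNAs.

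Zfp36: tatgacgactTTATTTATTgtattaagat
Zfp36l1: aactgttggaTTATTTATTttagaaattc
Zfp36l2: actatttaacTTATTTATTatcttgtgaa

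The share of genes with a 3′ UTR of like length (80% to 125% of its own) that held the nonamer was 4.27% for Zfp36, 9.92% for Zfp36l1 and 9.80% for Zfp36l2. The shorter core ATTTA, which lies inside the nonamer, was found in 8 of the 9 genes, all but Ier2, against 64.7% of all genes. Ier3 held 5 copies in 613 bases, and 3% of genes of like length had 5 or more. Btg1 held 11 copies in its 4166 bases, where genes of like length had a median of 7. In gene structure, Ier2, Ier5 and Ier5l had 1 exon and the other 6 genes had 2.

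The targeted gene, Smarca4, had a level of 34.0 FPKM in basal and 28.5 in KCl neurons of the wild type, and of 10.5 and 10.4 in those of the cKO. Xist stood at 83.3 and 78.1 in wild type and at 0.14 and 0.29 in the cKO, and the Y-linked gene Ddx3y at 0.035 and 0.045 against 21.7 and 60.7, so sex and genotype cannot be told apart in any genotype comparison here. Approximated depths were 20500000 to 22900000 fragments. Markers of neurons and of other cells were both present: excitatory neuron markers (15 of 15 at 1 FPKM or more) summed to 551 to 823 FPKM per library, and astrocyte markers (13 of 13) to 3198 to 5352. In bulk RNA, a different number of cells of a type and a different RNA level per cell cannot be told apart. Scaling between libraries was not stated. Rescaling to the ribosomal protein genes moved the median log2 KCl ratio of all genes from -0.01 to -0.34 in wild type and from 0.01 to -0.40 in the cKO, and rescaling to a presynaptic list moved them to 0.21 and 0.31. For cKO against wild type the presynaptic list moved it from 0.01 to 0.21 at basal KCl and from 0.03 to 0.30 after KCl. Of the genes past 2-fold with KCl, the share that was higher was 60.5% in wild type (23.6% and 81.8% under those rescalings) and 58.8% in the cKO (17.8% and 84.9%). For cKO against wild type it was 62.9% at basal KCl (79.7% with the presynaptic list and 74.1% with a pseudocount of 0.1) and 66.5% after KCl (56.1% and 85.7% under those rescalings). For the difference in KCl response it was 45.9%, and 34.8% with the ribosomal rescaling.

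The 9 genes together stood at 70.3 FPKM in wild-type basal, 227 in wild-type KCl, 86.7 in cKO basal and 279 in cKO KCl neurons. The summed level was 3.23-fold higher with KCl in wild type and 3.22-fold higher in the cKO. The Ier genes made most of this gain: their sum was 29.4 FPKM at basal and 149 with KCl in wild type, and 33.4 and 195 in the cKO. Zfp36 genes summed to 25.3 and 40.1 in wild type and to 32.9 and 47.5 in the cKO, and Btg genes to 15.6 and 38.1 in wild type and to 20.4 and 36.2 in the cKO. The share of the summed level held by Ier genes was therefore 41.8% and 65.6% in wild type, and 38.5% and 70.003% in the cKO.

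**Figure D1:**
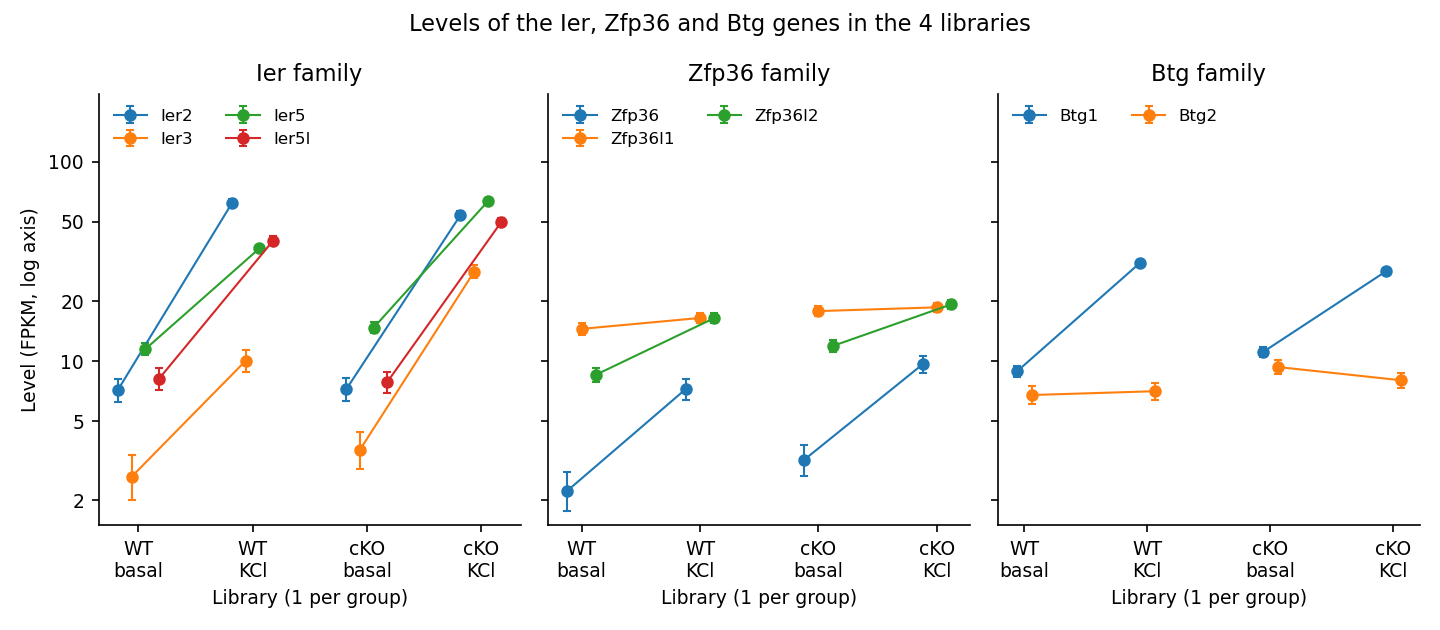
Level of each gene in FPKM (log axis) in the 4 libraries, 1 panel for each family, with 95% intervals that cover counting error only; lines join basal and KCl of 1 genotype. All 4 Ier genes, Zfp36, Zfp36l2 and Btg1 stand higher in the KCl library of each genotype, while Zfp36l1 and Btg2 stay near 15 to 19 and 7 to 9 FPKM.

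The order of levels differed between basal and KCl. At basal KCl in wild type Zfp36l1 was highest (14.5 FPKM), followed by Ier5 (11.5). Btg1 (8.87), Zfp36l2 (8.54), Ier5l (8.15), Ier2 (7.16) and Btg2 (6.76) followed, each with a 95% counting interval that overlapped the next. Ier3 (2.63) and Zfp36 (2.24) were lowest, and their intervals overlapped. The intervals of levels and of single ratios are exact, rest on approximated fragments and leave out variation from culture to culture. With KCl in wild type the order began with Ier2 (62.1), Ier5l (40.2), Ier5 (36.8) and Btg1 (31.1), of which only the Ier5l and Ier5 intervals overlapped, and Btg2 was last (7.06), next to Zfp36 (7.24). In cKO KCl neurons Ier5 came first (63.3), then Ier2 (53.9) and Ier5l (50.0), whose intervals overlapped, and Ier3 (28.0) reached the level of Btg1 (28.2).

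The comparison of KCl with basal shows the response to depolarization in each genotype. In wild type 6 of the 9 genes were at least 2-fold higher after 1 FPKM was added to both values (Ier2, Ier3, Ier5, Ier5l, Zfp36 and Btg1), and none was lower. The background was 5.07% of all genes higher and 3.31% lower by that size. The members' median log2 ratio was 1.60, against -0.01 for all genes. In the cKO the same 6 genes were at least 2-fold higher and none was lower, against 4.41% of all genes higher and 3.09% lower, with a median of 1.34 against 0.01. With rescaling to the ribosomal genes the cKO count was 4 of 9, since Zfp36 (0.94) and Btg1 (0.82) were below 1 on the log2 scale.

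Ier2 stood at 7.16 FPKM in wild-type basal, 62.1 in wild-type KCl, 7.21 in cKO basal and 53.9 in cKO KCl neurons. The 2 KCl libraries were high and the 2 basal libraries were alike. The ratio was 8.67-fold in wild type (95% counting interval 7.55 to 10.01) and 7.47-fold in the cKO (6.52 to 8.56), and Ier2 had the largest wild-type ratio of the 9.

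Ier5l stood at 8.15 and 40.2 FPKM in wild type and at 7.86 and 50.0 in the cKO, in basal and KCl libraries. Its ratio was 4.94-fold in wild type (4.32 to 5.66) and 6.37-fold in the cKO (5.61 to 7.27). Ier5, its close relative, stood at 11.5 and 36.8 in wild type and at 14.7 and 63.3 in the cKO. The Ier5 ratio was 3.21-fold in wild type (2.96 to 3.48) and 4.30-fold in the cKO (4.03 to 4.61). For both genes the cKO KCl library was the highest of the 4.

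Ier3 stood at 2.63 FPKM in wild-type basal, 10.05 in wild-type KCl, 3.59 in cKO basal and 28.0 in cKO KCl neurons. The cKO KCl library stood apart from the other 3. The KCl ratio was 3.82-fold in wild type (2.85 to 5.15) and 7.81-fold in the cKO (6.24 to 9.90), the widest gap between genotypes among the 9 genes.

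Zfp36 stood at 2.24 and 7.24 FPKM in wild type and at 3.20 and 9.63 in the cKO. Its ratio was 3.24-fold (2.51 to 4.19) and 3.01-fold (2.46 to 3.73). Zfp36l2 stood at 8.54 and 16.4 in wild type and at 11.9 and 19.2 in the cKO. It was the gene nearest below the 2-fold size, with ratios of 1.93 (1.75 to 2.12) and 1.62 (1.49 to 1.76), and it passed that size in wild type with rescaling to the presynaptic list (log2 ratio 1.10). Zfp36l1 stood at 14.5 and 16.46 in wild type and at 17.8 and 18.6 in the cKO, ratios of 1.13 (1.04 to 1.24) and 1.04 (0.96 to 1.13). The Zfp36l1 direction was not stable: its log2 ratio was -0.18 in wild type and -0.39 in the cKO with ribosomal rescaling, and -0.01 in the cKO with the upper quartile. Within the family, Zfp36l1 held 57.4% of the summed level at basal and 41.0% with KCl in wild type, and 54.1% and 39.2% in the cKO.

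Btg1 stood at 8.87 FPKM in wild-type basal, 31.1 in wild-type KCl, 11.1 in cKO basal and 28.2 in cKO KCl neurons. Its ratio was 3.50-fold in wild type (3.26 to 3.78) and 2.54-fold in the cKO (2.38 to 2.72). Btg2, its paralog with the full CRE shown above, stood at 6.76 and 7.06 in wild type and at 9.34 and 8.02 in the cKO. No library stood far from the others. The Btg2 KCl ratio was 1.04-fold (0.91 to 1.20) in wild type, and in the cKO the KCl level was 1.17-fold lower (1.03 to 1.32). Its direction in wild type flipped with the upper quartile and ribosomal rescalings (log2 ratios -0.01 and -0.28), and in the cKO with the presynaptic rescaling (0.11). Btg1 was thus 56.8% of the Btg sum at basal and 81.5% with KCl in wild type, and 54.3% and 77.8% in the cKO.

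**Figure D2:**
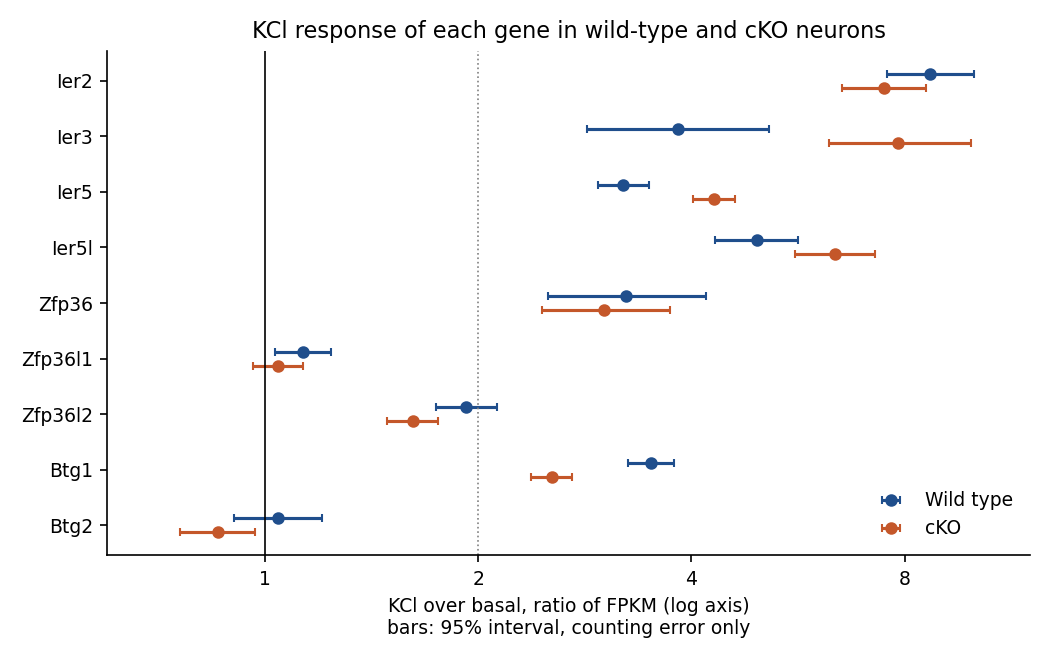
Ratio of the KCl to the basal level in FPKM (log axis) for each gene in wild-type and cKO libraries; bars are 95% intervals for counting error only, the solid line marks no difference and the dotted line 2-fold. The ratio in the cKO is larger for Ier3, Ier5 and Ier5l and smaller for Btg1, while the bars of the 2 genotypes overlap for Ier2, Zfp36, Zfp36l1 and Btg2 and, narrowly, for Ier5l and Zfp36l2.

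The difference between the responses bears on whether Brg1 loss alters gene activation by depolarization. Of the 9 genes, 6 had the smaller log2 response in the cKO, against 45.5% of all genes, with a median difference of -0.11 against 0.02. Only Ier3 was past 2-fold, with the larger response in the cKO (log2 difference 1.06), against 0.672% of all genes, and none was past 2-fold in the other direction, against 0.793%. With ribosomal rescaling the Ier3 difference was 0.94, so that no gene passed.

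The response was larger in the cKO for 3 of the 4 Ier genes: the ratio of the cKO ratio to the wild-type ratio was 2.04 for Ier3 (95% counting interval 1.42 to 2.94), 1.34 for Ier5 (1.21 to 1.49) and 1.29 for Ier5l (1.07 to 1.55). For Ier2 it was 0.86 (0.71 to 1.05). For both Btg genes it was below 1, at 0.73 for Btg1 (0.66 to 0.80) and 0.82 for Btg2 (0.68 to 0.99). For Zfp36l2 it was 0.84 (0.74 to 0.95), for Zfp36l1 0.92 (0.82 to 1.04) and for Zfp36 0.93 (0.68 to 1.28). These 4-library intervals use a normal approximation on the log scale for counting error, and a difference between the families, whose values overlap, was not tested. The sign of each difference held under the 4 rescalings except for Zfp36, where the log2 difference of -0.01 became 0.12 with the presynaptic list.

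**Figure D3:**
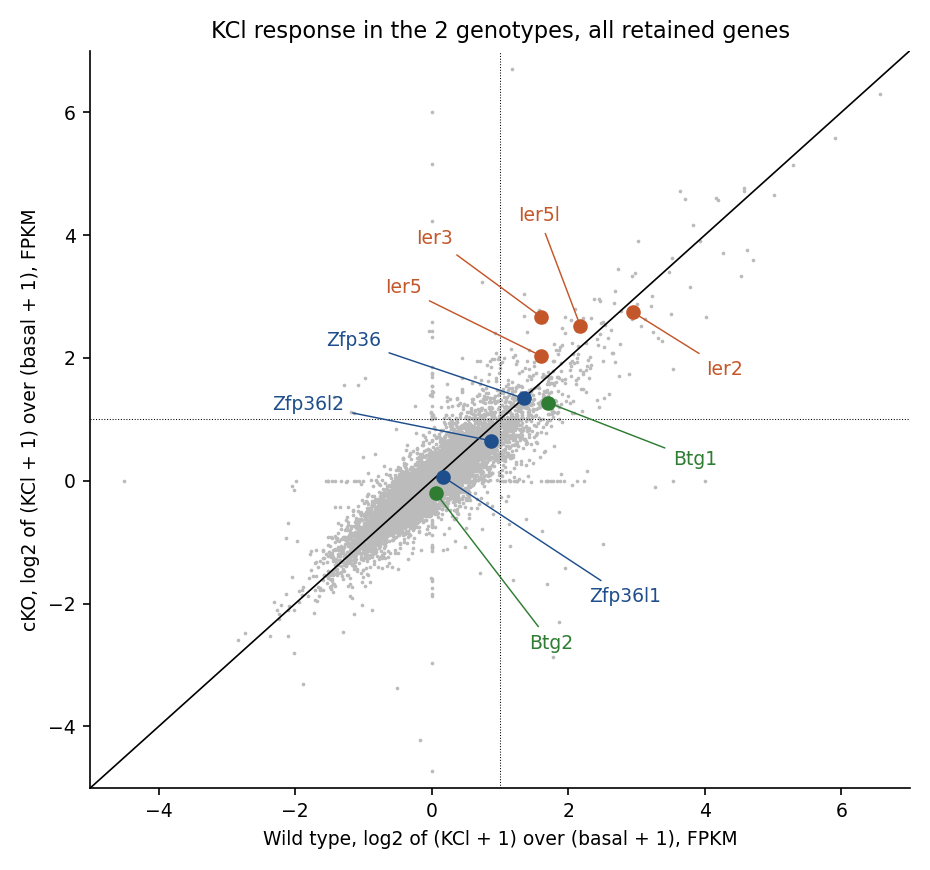
Log2 ratio of KCl to basal (FPKM plus 1) in wild type (horizontal) and cKO (vertical) for the 13248 retained genes in grey, with the 9 genes coloured by family; the diagonal marks equal responses and dotted lines mark 2-fold. Ier3, Ier5 and Ier5l lie above the diagonal, Btg1 and Btg2 below it, and Zfp36 on it.

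At basal KCl, the genotypes were compared before depolarization. None of the 9 was past 2-fold in either direction, against 0.936% of all genes higher and 0.551% lower. The level was higher in the cKO for 8 of the 9, all but Ier5l, against 52.2% of all genes, and the median log2 difference was 0.33 against 0.01 for all genes. Ratios of the 8 ran from 1.01 (Ier2) to 1.43 (Zfp36), and Ier5l was 1.04-fold lower (0.87 to 1.24). The intervals of Ier2 (0.84 to 1.22) and Ier3 (1.37, 0.96 to 1.92) included 1. Zfp36l2 had a ratio of 1.39 (1.26 to 1.55), Btg2 of 1.38 (1.21 to 1.58), Ier5 of 1.28 (1.17 to 1.41), Btg1 of 1.25 (1.15 to 1.36) and Zfp36l1 of 1.23 (1.12 to 1.34). The sign for Ier5l was the only one that changed with rescaling (log2 difference 0.15 with the presynaptic list). The KCl ratios above have these basal levels as denominators, so the comparisons share libraries.

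After KCl, 1 of the 9 was at least 2-fold higher in the cKO (Ier3), against 1.87% of all genes, and none was lower, against 0.944%. The level was higher in the cKO for 7 of the 9, against 55.1% of all genes, and the median log2 difference was 0.22 against 0.03. Ier3 was 2.79-fold higher (2.40 to 3.25), Ier5 1.72-fold (1.64 to 1.81), Zfp36 1.33-fold (1.14 to 1.56) and Ier5l 1.24-fold (1.16 to 1.34). Zfp36l2 (1.17, 1.09 to 1.26), Btg2 (1.14, 0.995 to 1.296) and Zfp36l1 (1.13, 1.04 to 1.23) had smaller ratios. Ier2 was 1.15-fold lower (1.08 to 1.23) and Btg1 1.10-fold lower (1.05 to 1.16), and both were higher with the presynaptic rescaling (log2 differences 0.10 and 0.16). With that rescaling Ier5 was also past 2-fold (1.07).

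Markers of other cell types moved with the genotype. Vascular and fibroblast markers, of which 6 of 11 reached 1 FPKM, summed to 21.2 in wild-type basal, 36.6 in wild-type KCl, 62.7 in cKO basal and 135 in cKO KCl neurons. The lowest and highest libraries of this sum, wild-type basal and cKO KCl, were also those of Ier3, Ier5, Zfp36, Zfp36l1 and Zfp36l2. The microglia and astrocyte sums also had these lowest and highest libraries, and the share of all genes that did was not counted. The other 2 libraries had the order of the vascular and microglia sums in Zfp36l1 alone of these genes. In Ier3, Ier5, Zfp36 and Zfp36l2 they had the order of the astrocyte sum (4483 in wild-type KCl and 3889 in cKO basal neurons). The endothelial gene Cldn5 was listed at 0 in all 4 libraries and Cdh5 stood at 0.038 FPKM or less, while the pericyte gene Rgs5 reached 31.0. Microglia markers, 12 of 12 at 1 FPKM or more and none at 0, summed to 223 and 263 in wild type and to 452 and 577 in the cKO. Astrocyte sums were 1.22-fold higher in the cKO at basal and 1.19-fold higher after KCl, with most of the sum in Apoe (1260 and 1723 FPKM at basal in wild type and cKO) and Fabp7 (1013 and 1301). Most astrocyte markers stood the other way: 8 of 13 were lower in the cKO at basal (median log2 difference -0.08) and 9 of 13 after KCl (-0.24), among them S100b (8.34 and 1.34 FPKM at basal). Excitatory neuron sums were 823 and 742 in wild type and 740 and 551 in the cKO. At basal KCl 8 of these 15 markers were higher in the cKO (median 0.01), while Nrgn was lower (171 and 81.4), and after KCl 13 of 15 were lower (median -0.31). Interneuron sums (12 of 14 markers at 1 FPKM or more, Vip at 0 in wild-type KCl) were 257, 119, 228 and 102 in the same order. Oligodendrocyte lineage sums (10 of 10) were 630 and 735 in wild type and 402 and 362 in the cKO. The part of these cells in the levels of the 9 genes was not tested.

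**Figure D4:**
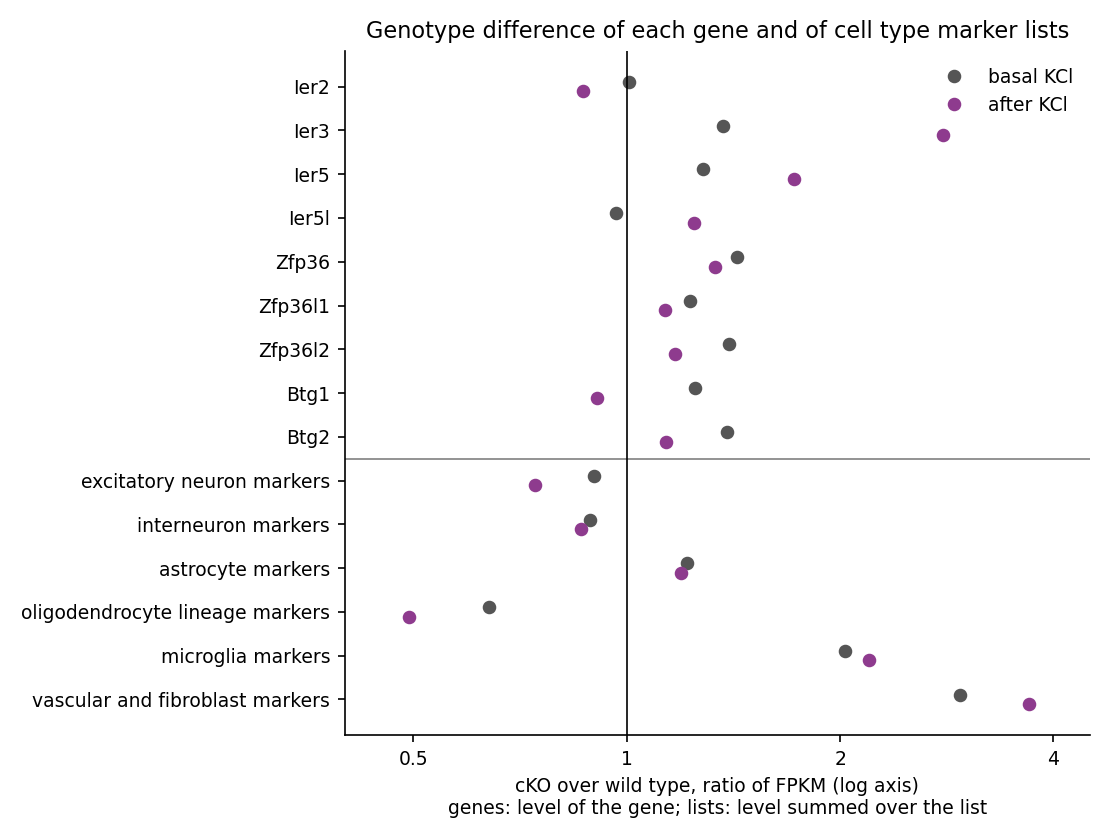
Ratio of cKO to wild type in FPKM (log axis) at basal KCl and after KCl, for each gene (top) and for the summed level of 6 cell type marker lists (bottom). Ier3 after KCl (2.79) lies between the microglia lists' ratios (2.03 and 2.20) and those of the vascular and fibroblast list (2.95 and 3.70), and the other genes lie below these lists.

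Genes with the most similar profiles were taken as the 3 with the smallest distance between log2 profiles over the 4 libraries, each centred on its own mean, among 9303 named genes that reached 5 FPKM. With 4 libraries such likeness is a description only. For Ier3 they were Thbs2, a matrix glycoprotein gene (0.98 and 4.90 FPKM in wild type and 1.47 and 15.9 in the cKO, basal then KCl; distance 0.10), Filip1l (0.29) and Rgs16, a G protein regulator gene (0.40). For Ier5 they were the small heat shock protein gene Cryab (2.74 and 9.02 in wild type, 3.64 and 15.4 in the cKO; distance 0.20), Ehd2 (0.23) and Prss23 (0.26). For Ier5l they were Smad6 (0.10), Akap12 (0.15) and Sertad1 (0.22), and for Ier2 Ptx3 (0.14), the AP-1 gene Fosl1 (0.18) and Csrnp1 (0.19). Zfp36 was nearest to the cyclin gene Ccnd2 (0.08), Fndc3b (0.12) and Lamc1 (0.14), and Zfp36l2 to Nfe2l2 (0.04), Rgs4 (0.06) and Tnfrsf1a (0.07). Btg1 was nearest to Stk17b (0.06), Fam167a (0.08) and Nfat5 (0.10). Among the 9 themselves the closest pair was Zfp36l1 with Btg2 (0.21), both nearly flat, followed by Zfp36 with Btg1 (0.39), and the Btg paralogs lay 1.57 apart.

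Of the relatives of Btg1 and Btg2, the Tob genes were higher with KCl in both genotypes. Tob1 stood at 20.6 and 46.4 FPKM in wild type and at 19.1 and 47.8 in the cKO, and Tob2 at 10.6 and 33.2 in wild type and at 10.7 and 22.6 in the cKO. Both were past 2-fold in both genotypes, against 5.07% of all genes higher in wild type and 4.41% in the cKO. Tob2 passed only just in the cKO (log2 ratio 1.01). The log2 differences in response of Tob1 and Tob2 were 0.14 and -0.55. Btg4 was listed below 1 FPKM in every library. Btg3 was listed near 0 in all 4 libraries, a value that is uncertain and is not read as a level.

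Zfp36 and Btg proteins recruit the machinery of deadenylation and decapping. All 24 of its listed genes, such as those of CCR4-NOT subunits, lay within 2-fold in all 4 comparisons, as most genes did (5.07% of all genes were higher and 3.31% lower with KCl in wild type), with a median log2 KCl ratio of -0.10 in wild type and one of -0.05 in the cKO. Other proteins that bind AU-rich or stem-loop elements gave a list of 16 genes. In wild type 1 of the 16 was at least 2-fold higher with KCl and 1 lower, against 5.07% and 3.31% of all genes. These were Rc3h1 (Roquin-1, 8.14 and 19.5 FPKM) and the neuronal gene Elavl2 (46.0 and 18.6). In the cKO none was higher and only Elavl2 was lower (41.9 and 15.3), against 4.41% and 3.09%. Rc3h1 stood at 9.15 and 15.5 there. These counts are small, and their difference from the shares of all genes was not tested. The list's median log2 KCl ratio was 0.18 in wild type and 0.07 in the cKO.

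Of 24 RNAs known from other work as Zfp36 family targets, 19 reached 1 FPKM. With KCl, 4 of the 19 were higher by 2-fold or more in wild type (5.07% of all genes) and 9 in the cKO (4.41%), with none lower (3.31% and 3.09%) and medians of 0.70 and 0.85 on the log2 scale. The 4 genes higher in wild type were Fos, Dusp1, Ptgs2 and Nfkbia. Fos is also 1 of the 42 other rapid response genes given below, so the 2 lists overlap. Fos stood at 2.40 and 203 FPKM in wild type and at 3.69 and 224 in the cKO, Ptgs2 (inducible cyclooxygenase) at 0.20 and 3.65 and at 0.16 and 6.34, and the chemokine gene Ccl2 at 0.17 and 0.96 and at 0.63 and 14.3. In cKO against wild type after KCl, 5 of the 19 were at least 2-fold higher (1.87% of all genes) and none lower (0.944%), among them Ccl2, Ccl3 (6.70 and 18.4), Plau (4.44 and 11.6) and Plaur (2.52 and 6.68). At basal KCl Plau alone was past 2-fold (5.06 and 11.8), against 0.936% of all genes. Ccl3 is also a gene of microglia. The summed microglia markers and the summed vascular and fibroblast markers were higher in the cKO after KCl, by 2.20-fold and 3.70-fold. The part of those cells in the values of Ccl2, Ccl3, Plau, Plaur or any other target here was not tested.

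A list of 18 genes held PP2A subunits and HSF1, the partners of IER proteins, and also HSF1 target chaperones. In each genotype 3 of the 18 were at least 2-fold higher with KCl and none was lower. All were chaperone genes: Hspa1b, Hspa1a and Hspb1. No PP2A subunit gene passed that size, and neither did Hsf1. The shares over all genes were 5.07% higher and 3.31% lower in wild type, and 4.41% and 3.09% in the cKO. Hspa1b stood at 0.26 and 7.36 FPKM in wild type and at 0.25 and 12.6 in the cKO, and Hspa1a at 0.83 and 2.80 and at 0.60 and 5.39. These 2 genes are near-identical copies, so reads may have been split between them. Hspb1 stood at 0.15 and 1.36 in wild type and at 0.61 and 5.16 in the cKO, so its wild-type levels were low. In cKO against wild type after KCl, Hspb1 was the only 1 of the 18 at least 2-fold higher, against 1.87% of all genes. None was lower (0.944%), and the difference of this count from these shares was not tested. The list's median log2 KCl ratio was 0.43 in wild type and 0.30 in the cKO.

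Of 12 genes of the p53 pathway and the cell cycle genes tied to Btg2, the cell cycle inhibitor gene Cdkn1a was past 2-fold with KCl in wild type (18.1 and 40.7 FPKM). In the cKO Cdkn1a (25.1 and 51.9) and the cyclin gene Ccnd1 (20.5 and 43.6) were. That is 1 and 2 of 12 genes, where the all-gene shares were 5.07% for wild-type libraries and 4.41% for cKO libraries. Both counts are small, and their difference from these shares was not tested. None of the 12 was lower, and the medians were 0.27 and 0.35. Among 42 other rapid response genes, 31 were at least 2-fold higher with KCl in each genotype, against the same shares, and none was lower, with a median log2 ratio of 2.21 for wild type and 2.002 for the cKO. Their median difference in response was -0.26, with 30 of 42 below 0 (45.5% of all genes) and 2 at least 2-fold lower (0.793%), Nr4a2 (-1.19) and Egr4 (-1.16). The largest positive difference in that list was that of Gadd45b (0.87, at 1.95 and 23.0 FPKM in wild type and 1.27 and 32.9 in the cKO), below the 1.06 of Ier3.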

How the data were processed

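Gene values of 4 RNA-seq libraries of mouse cortical neurons were taken from 1 table deposited by the authors. The unit was read from the deposited values as FPKM, since no label or header names it. TopHat 1.3.2 and mm9 are named in the submitters' processing notes; the counting program, annotation and any filter were not given in the sources used here. Every column was mapped to its sample by the sample's description.

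Genes of at least 1 FPKM in 1 or more libraries were kept (13248). Log2 ratios were taken on FPKM + 1, which understates changes of low genes, and a size of 2-fold replaced a test. Single-gene folds divide one deposited value by another. Depth was approximated from the commonest single-fragment step among 1454 genes with 1 transcript over 2000 bases in GENCODE M21 (GRCm38, not the authors' build), and 95% counting intervals used exonic bases inside the RefSeq gene span as length. The intervals are exact Poisson for levels and exact binomial for ratios.

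The 9 members and all gene lists were chosen with earlier results of these data known. Named genes were the members, the checks, up to 4 of each list by size of ratio in a comparison, and the nearest profiles; Rgs5, Cldn5, Cdh5 and Btg4 were named as markers or relatives. The 8 alternatives were a pseudocount of 0.1, no filter, a minimum of 5 FPKM, 4 rescalings (median ratio, upper quartile, 60 ribosomal and 21 presynaptic genes) and a size of 1.5-fold. Python 3.11.15, NumPy 2.4.6, pandas 2.3.3, SciPy 1.17.1 and matplotlib 3.10.9 were used, and the ratio step was tested on simulated data.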

Additional observations from a re-analysis of the deposited data

Results flagged for a closer look

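With 1 library a group, 4 values had opposite signs in the 2 members of a pair of comparisons, and none of these differences was tested. The share of all genes with opposite signs was not counted, and some of the values below lie near 0. The genotype difference on the log2 scale was 0.29 at basal KCl and -0.14 after KCl for Btg1, a change of -0.43. It was 0.01 and -0.20 for Ier2, a change of -0.21, and -0.05 and 0.31 for Ier5l, a change of 0.35. The Btg2 KCl response was 0.06 in wild-type and -0.20 in cKO libraries, which differ by -0.25. With the presynaptic rescaling the signs were no longer opposite for any of the 4, and with the upper quartile or ribosomal rescaling they were no longer opposite for Btg2.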

How the results depend on the processing

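The counts of members past 2-fold stayed within 1.5 times of 6 of 9 with KCl in each genotype and at 0 of 9 for the genotypes at basal KCl under all 8 alternatives. For cKO against wild type after KCl the count was 1, and 2 with presynaptic rescaling and 2 at a size of 1.5-fold (Ier3 and Ier5 in both, against 5.56% of all genes at 1.5-fold higher). Members with the smaller KCl response in the cKO numbered 6, and 5 with presynaptic rescaling. Each of 45 single-gene values was judged by how far it moved on the log2 scale. The limit was the distance from the middle of its counting interval to either end. All moved by no more than that with the pseudocount of 0.1, the median ratio and the upper quartile. With the ribosomal rescaling 19 moved by more, and with the presynaptic rescaling 29 did, and the cause was not tested. Counts over all genes moved more: with KCl in wild type 672 were at least 2-fold higher and 439 lower, against 1029 and 838 with the pseudocount of 0.1, 389 and 1261 with ribosomal and 1023 and 228 with presynaptic rescaling. In the cKO these were 584 and 410, against 878 and 787, 292 and 1346, and 1101 and 196. For the genotypes they were 124 and 73 at basal KCl (377 and 132 with the pseudocount, 200 and 51 with the presynaptic list) and 248 and 125 after KCl (486 and 240, and 487 and 81), and for the difference in response 89 and 105 (179 and 198 with the pseudocount, 32 and 51 with the 5 FPKM minimum, which also gave 94 and 42 at basal KCl and 162 and 83 after KCl). At a size of 1.5-fold the 5 pairs of counts were, in the same order, 1681 and 1693, 1518 and 1473, 523 and 192, 736 and 440, and 261 and 378. Leaving out a library was not possible, since each group had 1. Depth limits Ier3 and Zfp36 most: their wild-type basal levels rested on about 59 and 81 fragments.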
